A study of Mus musculus with 12 samples.

Results

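Annexins are proteins that bind phospholipid membranes in the presence of calcium, through a core of repeated domains that all members share, while the amino-terminal end differs from member to member and binds different partners. They act in membrane repair, in the movement of vesicles, in blood clotting and fibrinolysis, and in the control of inflammation. In liver, Anxa6 is among the annexins of the hepatocyte, whereas Anxa2 is low in resting adult hepatocytes and is better known from bile duct, endothelial and inflammatory cells. The 9 members described here, Anxa1, Anxa2, Anxa3, Anxa4, Anxa5, Anxa6, Anxa7, Anxa11 and Anxa13, were chosen by name from the 12 annexin genes of a table of 55401 genes. All 9 passed the filter on low counts and were among the 13205 genes tested.

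Their transcripts were counted by RNA-seq in whole liver of 12 female mice aged 15 weeks, 6 iTgMir483 mice and 6 control littermates (Control), with 1 mouse per library. The iTgMir483 mice carried an extra copy of the microRNA gene Mir483 at Rosa26 under a Tet-off promoter, which doxycycline switches off. Doxycycline covered gestation and was then withdrawn, so that the transgene was on from birth. All mice were on C57BL/6J and ate chow, and the label of every library, Control included, names the same cross of CMV-Cre with the Mir483 line. CMV-Cre acts in all tissues from soon after fertilization and removed the selection cassette, so the transgene was not limited to one liver cell type. Since the line was made from transgene-heterozygous sires and dams with CMV-Cre on both alleles, all pups of such a cross, controls included, inherit CMV-Cre. The labels give no genotype for a Control mouse other than "control". Mir483 itself had 0 counts in every Control library and 318 to 761 counts in the iTgMir483 libraries. Library totals ran from 12244123 to 30431286 counts. The replicate 1 libraries of both groups deviated from their group means in the same direction more than any other like-numbered pair (r = 0.44 across genes), and values without them are given where they change a call.

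The mature microRNAs of the transgene are printed first because they give the letters searched for in annexin transcripts. Bases 2 to 8, the seed, are in capitals.
miR-483-3p: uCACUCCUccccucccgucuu
miR-483-5p: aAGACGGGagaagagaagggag
The sequences are those of RefSeq on GRCm38, at chr7:142654932-142654952 and chr7:142654968-142654989 on the minus strand. The transcripts searched were the protein-coding ones of the GENCODE basic set, where 8 members had a 3′ untranslated region (UTR). Of these 8, 1 held the miR-483-3p seed match AGGAGTG and 0 held the miR-483-5p match CCCGTCT, whether the longest UTR or every such transcript was searched. Among all tested genes with a 3′ UTR, 12.6% held the first match and 3.26% the second. The median UTR was 577.5 bases in the 8 members and 1164 bases in all tested genes, and a longer UTR has more room for a match. The 1 match lay in Anxa11, at position 412 of a UTR of 734 bases, chr14:25886482-25886488 on the plus strand, and is shown in capitals with its flanks.
Anxa11 3′ UTR: tgtttgtgggAGGAGTGatgggtgaga
Anxa13 had no protein-coding transcript in the GENCODE basic set and was not searched. Anxa2, Anxa3 and Anxa5, the members that differed most between the groups, held neither match. Only exact matches to bases 2 to 8 in annotated 3′ UTRs were searched, not other seed matches, coding sequence or 5′ UTRs.

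Of the annexins, 3 were higher in iTgMir483 livers and none was lower. Anxa2, which pairs with the small calcium-binding protein S100a10 and binds plasminogen activators at the cell surface, showed the largest difference, with a 4.12-fold higher fitted level. Anxa3, an annexin with phospholipase-inhibiting activity that is abundant in neutrophils, was 1.80-fold higher, and Anxa5, which binds phosphatidylserine on the surface of dying cells, was 1.73-fold higher. A gene was called at a Benjamini-Hochberg adjusted p under 0.05 in edgeR's quasi-likelihood test over all 13205 genes together with a fold change over 1.5. By that rule 3 of 9 members (33.3%) were higher, beside 8.41% of all tested genes, and 0 of 9 were lower, beside 2.73%. By adjusted p alone 4 of 9 (44.4%) were higher, with Anxa1 added, beside 11.3% of all tested genes, and 0 were lower, beside 7.33%. In 3 of 9 members (33.3%) every iTgMir483 library lay above every Control library, beside 5.09% of all tested genes, and in 0 of 9 every iTgMir483 library lay below, beside 2.83%. The members were chosen with earlier results of these data known, so these shares are a description. The median log2 fold change of the 9 members was 0.43, the value of the scarce Anxa13, beside 0.01 over all tested genes. As single libraries were left out it ran from 0.20, the value of Anxa13 without iTgMir483 replicate 6, to 0.58, the value of Anxa1 without Control replicate 5. Its size rests on whichever member falls in the middle and is only a description. With all libraries, 8 members had a fold change above 0 and 1 below. These are whole-liver RNA samples, in which more or fewer cells of a type cannot be told apart from more or less RNA per cell, and macrophage, neutrophil and bile duct markers were also higher in iTgMir483 livers, with the values given after the pathway genes.

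Anxa2 (ENSMUSG00000032231) lies on chromosome 9, 69453620 to 69491795, plus strand of GRCm38. In CPM, counts scaled to a common library size and corrected for library composition, Control replicates 1 to 6 had 13.0, 11.3, 13.3, 9.54, 13.3 and 7.86, and iTgMir483 replicates 1 to 6 had 16.9, 44.2, 65.5, 35.0, 61.3 and 58.0. Every iTgMir483 liver was above every Control liver, the lowest being replicate 1, and the iTgMir483 livers were spread far more widely than the Control livers. The group means were 11.4 ± 2.25 CPM in Control and 46.8 ± 18.6 CPM in iTgMir483 (SD, n = 6 each), a log2 fold change of 2.04 (SE 0.268, 95% interval 1.47 to 2.62, adjusted p = 0.000371). An antisense gene that shares exon bases with it, Gm16144, had 0 counts in every library. Anxa2 was the only member whose fold change was also past 1.5 when the test itself was set against that fold (adjusted p = 0.00301).

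Anxa5 (ENSMUSG00000027712; chromosome 3, 36448923 to 36475894, minus strand) had 68.0, 57.8, 69.7, 61.4, 67.7 and 70.5 CPM in Control replicates 1 to 6 and 90.2, 88.6, 152.1, 89.5, 111.9 and 152.2 CPM in iTgMir483 replicates 1 to 6. The groups did not overlap, and iTgMir483 replicates 3 and 6 stood highest. Means were 65.8 ± 5.10 and 114.1 ± 30.7 CPM (SD, n = 6 each), a log2 fold change of 0.79 (SE 0.149, 95% interval 0.47 to 1.11, adjusted p = 0.00310). Against a fold of 1.5 as the null, its adjusted p was 0.439.

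Anxa3 (ENSMUSG00000029484; chromosome 5, 96793339 to 96845966, plus strand) was an order of magnitude below Anxa5 in CPM. Control replicates 1 to 6 had 3.83, 7.25, 6.34, 5.92, 6.23 and 5.21 CPM, and iTgMir483 replicates 1 to 6 had 8.08, 8.99, 10.02, 12.2, 11.3 and 12.2 CPM. Again no iTgMir483 liver fell into the Control range, although replicate 1 came close to the highest Control. The means of 5.80 ± 1.17 and 10.5 ± 1.74 CPM (SD, n = 6 each) gave a log2 fold change of 0.85 (SE 0.158, 95% interval 0.51 to 1.19, adjusted p = 0.00286), and the adjusted p against a fold of 1.5 was 0.301. An unconfirmed transcript on the same strand, Gm42603, shares exon bases with Anxa3, so the assignment of reads in that stretch is uncertain.

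Anxa1 (ENSMUSG00000024659; chromosome 19, 20373428 to 20390944, minus strand), a glucocorticoid-induced protein that restrains phospholipase A2 and signals through formyl peptide receptors, passed the adjusted p but not the fold. Its Control values were 3.64, 2.93, 3.07, 3.45, 3.48 and 3.38 CPM and its iTgMir483 values 3.28, 5.57, 5.22, 5.28, 4.95 and 5.34 CPM, in order of replicate. iTgMir483 replicate 1 fell inside the Control range and the other 5 lay above it. The log2 fold change was 0.57 (SE 0.146, 95% interval 0.26 to 0.88, adjusted p = 0.0153), a fold of 1.48. Without iTgMir483 replicate 1 it was 0.66 (adjusted p = 0.00315), without Control replicate 1 it was 0.59 (adjusted p = 0.0191), and without both it was 0.69 (adjusted p = 0.00436), each past the fold of 1.5, so that 4 members were then called.

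**Figure D1:**
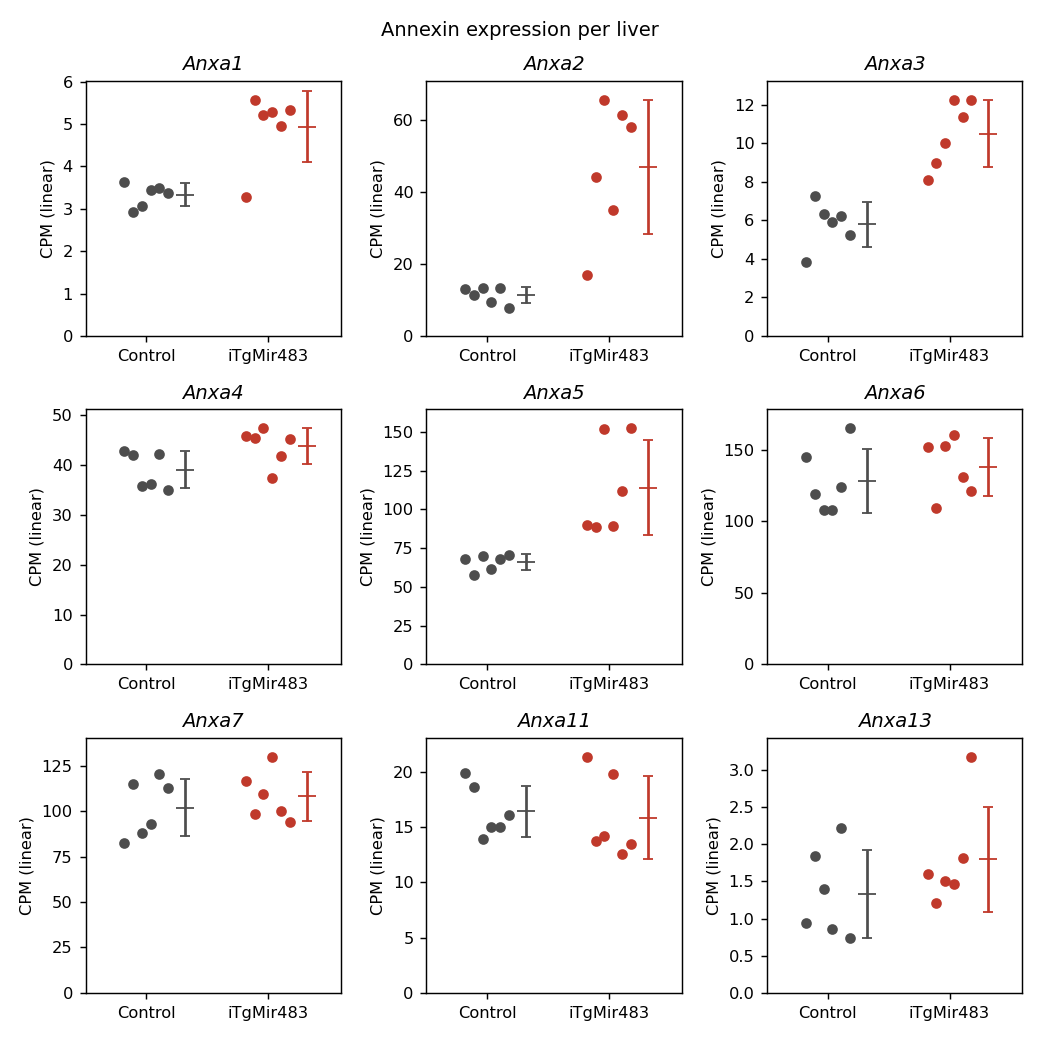
CPM (linear axis from 0, a scale per panel) of each of the 9 annexins in the 6 Control and 6 iTgMir483 livers, with a point per liver and the group mean with its SD. The groups do not overlap for Anxa2, Anxa3 and Anxa5, and for Anxa1 the only iTgMir483 liver within the Control range is replicate 1 at 3.28 CPM.

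The other 5 members were not called, and their intervals show which sizes of difference these livers leave possible. Anxa4, an annexin of secretory epithelia and bile duct, lies on chromosome 6, 86736840 to 86793584, minus strand, and shares exon bases with the noncoding Gm44036 on the other strand. It ran from 35.1 to 42.8 CPM (median 39.2) in Control and from 37.5 to 47.4 CPM (median 45.3) in iTgMir483, and 4 iTgMir483 livers were above all Control livers. Its log2 fold change was 0.17 (95% interval -0.02 to 0.35, adjusted p = 0.192).

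Anxa6, which carries a duplicated annexin core and takes part in endosome and cholesterol traffic, lies on chromosome 11, 54979108 to 55033445, minus strand. It had 107.9 to 165.1 CPM (median 121.9) in Control and 109.6 to 160.8 CPM (median 141.4) in iTgMir483, so the groups covered nearly the same range. The log2 fold change was 0.10 (95% interval -0.17 to 0.38, adjusted p = 0.613).

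Anxa7 (chromosome 14, 20455260 to 20480133, minus strand), known as synexin for its role in the fusion of secretory granules, had 82.7 to 120.4 CPM (median 102.6) in Control and 94.0 to 129.8 CPM (median 104.8) in iTgMir483. The ranges overlapped widely, and the log2 fold change was 0.09 (95% interval -0.16 to 0.33, adjusted p = 0.649).

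Anxa11 (chromosome 14, 25842156 to 25886804, plus strand), which tethers RNA granules to lysosomes and holds the seed match printed above, had 13.9 to 19.8 CPM (median 15.6) in Control and 12.6 to 21.3 CPM (median 13.96) in iTgMir483. In 3 iTgMir483 livers it lay below all Control livers and in 1 above them. Its log2 fold change was -0.05 (95% interval -0.36 to 0.26, adjusted p = 0.840), and the sign turned when Control replicate 1 (0.01) or iTgMir483 replicate 5 (0.01) was left out, so no direction is given. An antisense gene, Anxa11os, shares exon bases with it and had at most 2 counts in any library.

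Anxa13 (chromosome 15, 58341471 to 58389244, minus strand), an annexin of the intestinal and renal epithelium that is anchored by a fatty acid, was the scarcest member, with 8 to 41 counts per library. It had 0.732 to 2.21 CPM (median 1.17) in Control and 1.21 to 3.17 CPM (median 1.55) in iTgMir483. The highest liver, iTgMir483 replicate 6, was the only one above the Control range. The log2 fold change of 0.43 had a wide interval, -0.24 to 1.09 (adjusted p = 0.358), so a difference past the 1.5-fold threshold in the upward direction was not resolved at this depth.

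**Figure D2:**
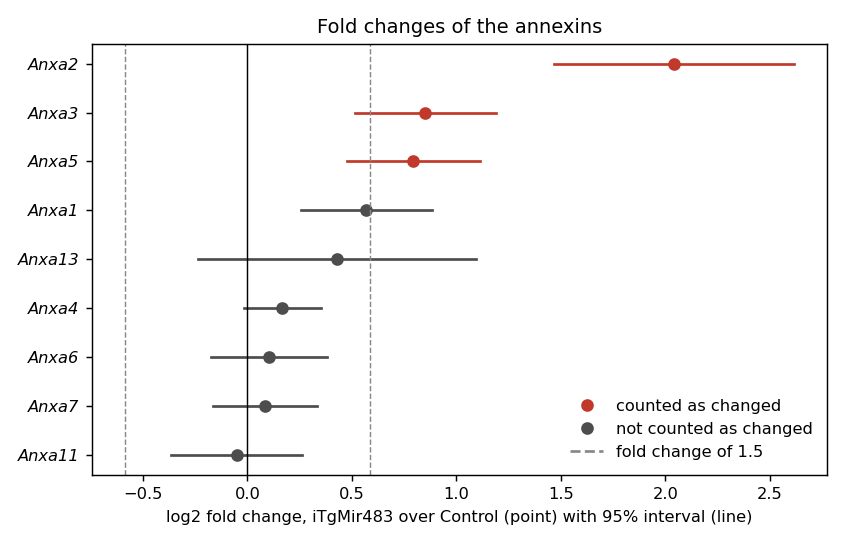
Log2 fold change of each annexin, iTgMir483 over Control (point), with its 95% interval (line), from edgeR's quasi-likelihood fit to 6 livers a group. Anxa2 at 2.04 stands to the right of all other members, the intervals of Anxa1, Anxa3 and Anxa5 lie above 0, and those of Anxa4, Anxa6, Anxa7, Anxa11 and Anxa13 include 0.

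The 3 further annexin genes of the table are no members. Anxa9 had 0.967 ± 0.429 CPM in Control and 1.61 ± 0.308 CPM in iTgMir483 (SD, n = 6 each), with a log2 fold change of 0.73 (SE 0.281) that was not called (adjusted p = 0.0855). Its exons overlap those of the protein-coding gene Mindy1 on the other strand and of 6330562C20Rik on its own. Anxa8 was too scarce for the fit, with 24 counts over 11 libraries, and differed by 0.41 on the log2(CPM + 0.1) scale (two-sided exact permutation test, p = 0.214). Anxa10 had 0 counts in every library.

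Levels can be compared between annexins only per length of transcript, and the following values are CPM per kilobase of merged exons. In Control livers Anxa6 (43.8 ± 7.74, SD, n = 6) and Anxa5 (37.1 ± 2.87) led the family, with overlapping ranges. Anxa7 (17.0 ± 2.64) and Anxa4 (8.41) followed, each separate from its neighbours. Anxa11 (3.97) and Anxa2 (3.05) overlapped, as did the 3 lowest in turn, Anxa3 (1.59), Anxa1 (1.14) and Anxa13 (0.986). In iTgMir483 livers Anxa5 (64.2 ± 17.3) had the highest mean, with a range that overlapped that of Anxa6 (47.1), and Anxa2 (12.5 ± 4.98) ranked between Anxa7 (18.03) and Anxa4 (9.45), whose ranges it overlapped. Anxa11 (3.83) and Anxa3 (2.88) overlapped, and Anxa1 (1.70) and Anxa13 (1.33) came last. The order depends on the length used: per kilobase of coding sequence, known here for 8 members, Anxa7 (69.8), Anxa5 (68.6) and Anxa6 (63.5) were close together in Control, and Anxa5 (118.8) led Anxa7 (74.1) and Anxa6 (68.2) in iTgMir483.

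**Figure D3:**
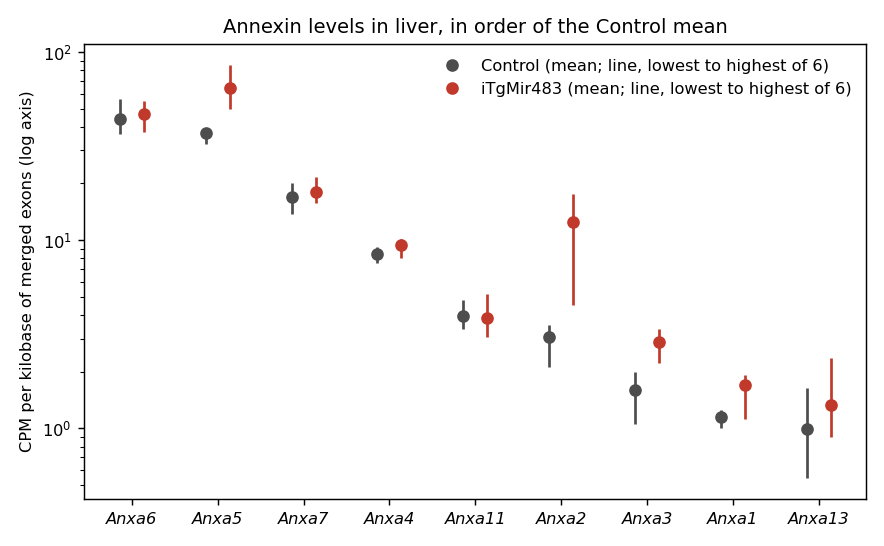
CPM per kilobase of merged exons (log axis) of the 9 annexins, in order of the Control mean. Each point is a group mean, and its line runs from the lowest to the highest of 6 livers. The family spans from 0.986 for Anxa13 to 43.8 for Anxa6 in the Control means, and Anxa2 moves from 3.05 to 12.5.

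As a share of the 9 members' summed CPM per kilobase of merged exons, Anxa2 made up 1.603% to 3.25% in Control livers (mean 2.62%) and 3.10% to 10.3% in iTgMir483 livers (mean 7.68%). Anxa5 took a mean of 31.8% in Control (28.7% to 35.9%) and 39.4% in iTgMir483 (32.4% to 47.9%). Anxa6 had a mean share of 37.2% in Control (33.7% to 42.9%) and 29.5% in iTgMir483 (23.2% to 35.5%), while its CPM did not differ beyond the spread. The mean shares of Anxa7 (14.6% and 11.4%), Anxa4 (7.22% and 5.95%) and Anxa11 (3.40% and 2.43%) were likewise smaller in iTgMir483 against a larger sum. That sum was 104.3 to 131.5 (mean 117) in Control and 133.9 to 192.9 (mean 161) in iTgMir483, with no overlap. The shares are a description, since the called members are part of the sum.

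**Figure D4:**
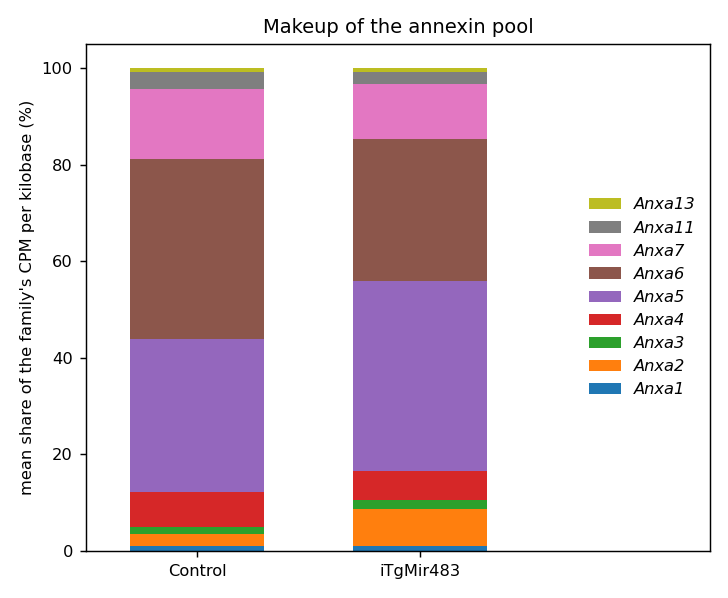
Mean share (%) of each annexin in the family's summed CPM per kilobase of merged exons, stacked for the 6 Control and the 6 iTgMir483 livers. The Anxa2 band widens from 2.62% to 7.68% and the Anxa5 band from 31.8% to 39.4%, while the Anxa6 band narrows from 37.2% to 29.5%.

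Whether the members varied together from liver to liver was examined after subtracting the group means from log2 CPM, so that the difference between the groups plays no part. Over 36 pairs and 12 livers, 0 correlations had an adjusted p under 0.05 by either measure. By Pearson correlation 1 pair had an unadjusted p under 0.05, Anxa2 with Anxa11 (Pearson r = -0.687, permutation p = 0.0323, adjusted p = 0.597, and Spearman rho = -0.755, permutation p = 0.0145, adjusted p = 0.522), and r was -0.554 without the 2 livers farthest from the median. By rank, Anxa6 with Anxa11 did too (rho = 0.594, permutation p = 0.0493, adjusted p = 0.662, with r = 0.579, permutation p = 0.0586, adjusted p = 0.597, and r = 0.629 without the 2 farthest livers). Anxa1 with Anxa2 had r = 0.70 (permutation p = 0.116, adjusted p = 0.597) and rho = 0.308 (permutation p = 0.379, adjusted p = 0.778), but r fell to 0.00866 without iTgMir483 replicate 1 and Control replicate 2, so the value rested on those livers. Anxa2 with Anxa5 had r = 0.619 (permutation p = 0.102, adjusted p = 0.597), rho = 0.538 (permutation p = 0.136, adjusted p = 0.751) and r = 0.80 without the 2 farthest livers.

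Among the 10553 tested genes that averaged 50 or more counts, those whose liver-to-liver pattern was most like each called member were ranked by the same measure over the 12 livers. For Anxa2 they were Lamb1, a laminin chain (r = 0.903), Zfp27 (r = 0.896) and Dcdc2a (r = 0.894), and for Anxa3 they were Slc22a5, a carnitine transporter (r = 0.939), Synpo (r = 0.925) and Cyp2a4 (r = 0.921). For Anxa5 they were Kdm5b, a histone demethylase (r = 0.961), Cdh1, the adhesion protein E-cadherin (r = 0.937), and Cenpc1 (r = 0.921). Lamb1 and Dcdc2a were themselves called higher in iTgMir483 livers, with log2 fold changes of 0.66 and 0.68, and the other 7 were not called. These are the highest values out of many and the libraries share depth and composition, so they are given as a description.

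The sequence upstream of Anxa2 and Anxa5 is shown for the called members with an entry in the RefSeq promoter table, which held 6 of the 9 members and not Anxa3, Anxa6 or Anxa13. The windows are the first 187 bases of those entries, which begin 250 bases before the start that RefSeq gives the gene (the GENCODE starts above differ from it), and were searched on both strands for 7 motifs chosen with the results known, the AP-1 site TGANTCA, the GC box GGGCGG, the CCAAT box, the TATA box TATAAA, the cyclic AMP element TGACGTCA, the sterol element TCACNCCAC and the NF-kB site, with matches in capitals.
Anxa2 upstream, chr9:69453433-69453619, plus strand: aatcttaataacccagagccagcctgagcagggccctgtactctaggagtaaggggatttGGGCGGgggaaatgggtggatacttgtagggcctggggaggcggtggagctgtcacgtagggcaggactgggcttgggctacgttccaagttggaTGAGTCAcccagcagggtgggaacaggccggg
Anxa5 upstream, chr3:36475951-36476137, minus strand: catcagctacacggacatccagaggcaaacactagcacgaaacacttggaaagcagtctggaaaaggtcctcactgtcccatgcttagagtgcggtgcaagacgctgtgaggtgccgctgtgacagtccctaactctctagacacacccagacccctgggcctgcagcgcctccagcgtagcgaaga
The Anxa2 window held 1 AP-1 letter match and 1 GC box, and the Anxa5 window held 0 matches to any of the 7. Of 32817 windows of the same length, 5.14% held the AP-1 letters, 22.2% the GC box, 26.2% the CCAAT box, 8.62% the TATA box, 0.661% the cyclic AMP element, 5.28% the NF-kB letters and 0.716% the sterol element. GC content was 59.9% for Anxa2 and 56.7% for Anxa5, with a median of 51.3% over all windows.

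The proteins that annexins bind or act with were followed next, in 5 lists of 40 genes, of which 34 were tested. Of these 34, 8 (23.5%) were called higher and 1 lower, beside 8.41% and 2.73% of all tested genes, and their median log2 fold change was 0.24. The lists were chosen with earlier results of these data known. Each holds few genes, so their counts here and below are only a description. Among the binding partners, 1 of 7 tested genes was higher and 0 were lower, with a median log2 fold change of 0.06. The 1 was S100a11, the small calcium-binding partner of Anxa1, which ran from 1.61 to 2.48 CPM (median 2.08) in Control and from 4.15 to 6.23 CPM (median 5.61) in iTgMir483. The groups did not overlap and the log2 fold change was 1.45 (adjusted p = 0.000144, SE 0.165).

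S100a10, the partner of Anxa2, had 56.4 to 125.7 CPM (median 90.2) in Control and 64.3 to 106.8 CPM (median 101.9) in iTgMir483. Its ranges overlapped, with a log2 fold change of 0.06 (adjusted p = 0.831, SE 0.168) beside 2.04 for Anxa2, and the difference between these 2 fold changes was not tested. Ahnak, a giant scaffold protein bound by Anxa2 and S100a10, passed the adjusted p but not the fold (log2 fold change 0.52, SE 0.131, adjusted p = 0.0141). The calcium sensors that bind Anxa7 and Anxa11, Pdcd6 and Sri, had log2 fold changes of 0.00 (adjusted p = 0.991) and 0.01 (adjusted p = 0.967). S100a6 had 0.23 (adjusted p = 0.621), and S100a4 had at most 3 counts in any library and was not tested.

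Of the formyl peptide receptors through which Anxa1 signals, 1 of 2 tested was called higher, with a median log2 fold change of 0.65 over the 2. Fpr1 ran from 2.45 to 4.12 CPM (median 2.94) in Control and from 2.82 to 8.87 CPM (median 5.51) in iTgMir483, with 4 iTgMir483 livers above all Control livers. Its log2 fold change was 0.89 (adjusted p = 0.0284, SE 0.259), and the call was lost when Control replicate 2 or 4, iTgMir483 replicate 4, 5 or 6, or both replicate 1 libraries were left out. Fpr2 had a log2 fold change of 0.41 (adjusted p = 0.453), and Fpr3 had 0 counts in every library.

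In the membrane repair list, which holds proteins that reseal the plasma membrane alongside annexins, 2 of 13 tested genes were higher and 0 were lower, with a median log2 fold change of 0.21. Myof, a ferlin that fuses vesicles with the membrane, went from a median of 3.62 CPM (3.02 to 4.69) in Control to 7.81 CPM (3.997 to 10.2) in iTgMir483, a log2 fold change of 1.02 (adjusted p = 0.00390, SE 0.199). Syt7, a calcium sensor of lysosome exocytosis, went from 1.48 CPM (0.823 to 1.74) to 2.45 CPM (1.94 to 3.84) without overlap, a log2 fold change of 0.94 (adjusted p = 0.0168, SE 0.246). The dysferlin gene Dysf, whose protein binds annexins at wounds, had 0.26 (adjusted p = 0.244), and the calpain gene Capn1 passed the adjusted p at 0.44 (adjusted p = 0.0324) but not the fold.

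In the plasminogen activation list, the proteolytic system that Anxa2 and S100a10 assemble at the cell surface, 2 of 7 tested genes were higher and 0 lower, with a median log2 fold change of 0.59. Plau, the urokinase, had a median of 1.36 CPM (1.01 to 1.81) in Control and 2.23 CPM (1.46 to 3.35) in iTgMir483, a log2 fold change of 0.71 (adjusted p = 0.0404, SE 0.225). Its call was lost without Control replicate 1, 2, 3, 5 or 6, or without iTgMir483 replicate 2, 3 or 6. The urokinase receptor gene Plaur had 0.87 (adjusted p = 0.106), the tissue activator gene Plat 0.59 (adjusted p = 0.239), and plasminogen itself, Plg, -0.11 (adjusted p = 0.732). Plaur was called higher when iTgMir483 replicate 1 or both replicate 1 libraries were left out. It was also called with the replicate number as a block, where Plau was not.

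In the eicosanoid list, 2 of 5 tested genes were higher and 1 lower, with a median log2 fold change of 0.23. Pla2g4a, the cytosolic phospholipase A2 that Anxa1 restrains, ran from 0.923 to 1.78 CPM (median 1.43) in Control and from 1.86 to 3.52 CPM (median 2.77) in iTgMir483 without overlap, a log2 fold change of 1.04 (adjusted p = 0.00498, SE 0.215). Ptgs1, a cyclooxygenase, ran from 13.4 to 17.3 CPM (median 14.4) and from 19.0 to 40.7 CPM (median 21.2), also without overlap, a log2 fold change of 0.69 (adjusted p = 0.0126, SE 0.169), and was not called without iTgMir483 replicate 4. Ltc4s, the leukotriene C4 synthase, ran from 0.670 to 2.07 CPM (median 1.24) and from 0.0600 to 1.002 CPM (median 0.325), a log2 fold change of -1.54 (adjusted p = 0.0319, SE 0.462). The Ltc4s call was lost without Control replicate 2, 3 or 4 or without iTgMir483 replicate 1, 2, 3 or 6. Ptgs2 had 0 counts in every library.

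**Figure D5:**
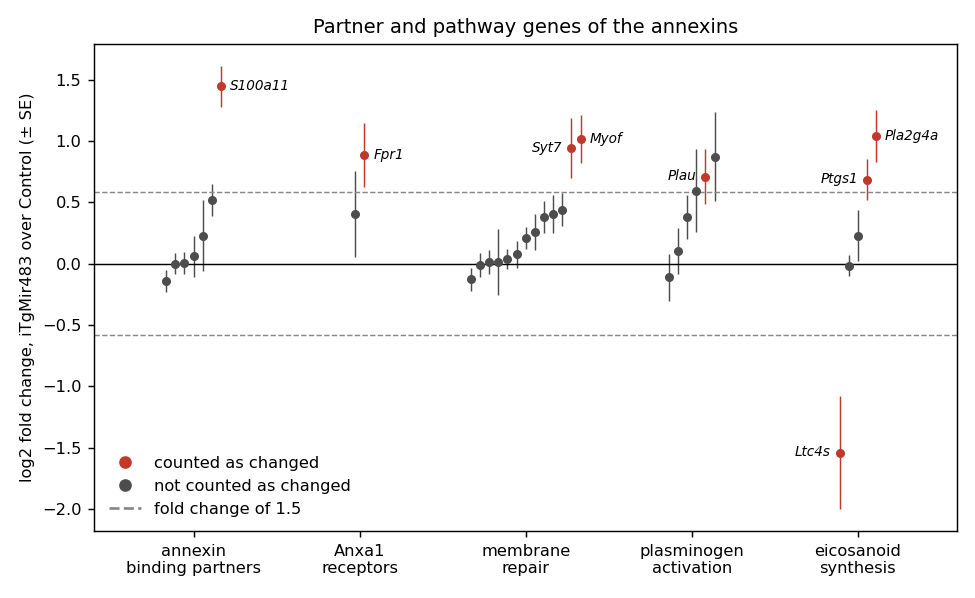
Log2 fold change, iTgMir483 over Control, of the tested genes of the 5 partner and pathway lists that are reported here (points), with the SE (bars), from the fit to 6 livers a group. S100a11 at 1.45 is the highest point, Ltc4s at -1.54 is the lowest, and S100a10 lies near 0.

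Markers of other liver cells also differed between the groups, in the same libraries as the annexins. Beside the counts of all marker lists stand 8.41% of all tested genes called higher and 2.73% called lower. Of the macrophage markers, 10 of 11 tested were called higher and 0 lower, with a summed level of 361.3 to 532 CPM in Control and 556.2 to 1611 CPM in iTgMir483. All 3 tested neutrophil markers were higher, from a sum of 3.51 to 6.04 CPM to one of 7.14 to 26.8 CPM, although the defining marker Ly6g had at most 3 counts in any library. Of the bile duct markers 3 of 7 tested were higher and 0 lower, with sums of 39.4 to 64.3 CPM and 76.1 to 118 CPM. None of these 3 sums overlapped between the groups, just as for Anxa2, Anxa3 and Anxa5, and their part in the annexin differences was not tested.

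Hepatocyte markers identified the tissue, with sums of 126900 to 172900 CPM in Control and 71170 to 141800 CPM in iTgMir483, and 1 of 8 was called higher and 2 lower. Of the lymphocyte markers 1 of 3 tested was higher, Ptprc, and 0 lower, with sums of 13.99 to 20.6 and 15.8 to 34.3 CPM. The median log2 fold change of the 3 was -0.51, so the call of Ptprc does not stand for the list. Endothelial (8 tested), stellate cell and fibroblast (9), mesothelial (3) and blood (5) markers had 0 calls in either direction. Exocrine pancreas and intestine markers had 1 tested gene each and 0 calls, and their sums overlapped between the groups. The defining markers Prss2, Cpa1, Pnlip and Cel of pancreas, Cdx1, Cdx2 and Alpi of intestine, and Plin1, Lep and Retn of adipose tissue had at most 3 counts in any library.

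Within the groups, the summed markers of these 3 cell types were set against the 3 called annexins over the 12 livers, 9 relations in all, and 0 had an adjusted p under 0.05. The strongest was bile duct markers with Anxa2 (r = 0.694, permutation p = 0.0085, adjusted p = 0.0765, rho = 0.72, permutation p = 0.0155), with r = 0.664 without the 2 farthest livers, Control replicate 3 and iTgMir483 replicate 3. Bile duct markers with Anxa5 had r = 0.674 (permutation p = 0.0282, adjusted p = 0.127), rho = 0.573 (permutation p = 0.0707) and r = 0.612 without the same 2 livers. Macrophage markers with Anxa2 had r = 0.016 (permutation p = 0.969, adjusted p = 0.969) and rho = 0.119 (permutation p = 0.747), and r was 0.666 without iTgMir483 replicates 4 and 3. Macrophage markers had r = -0.261 with Anxa5 (permutation p = 0.646, adjusted p = 0.831, rho = 0.035, permutation p = 0.933) and r = 0.42 with Anxa3 (permutation p = 0.147, adjusted p = 0.331, rho = 0.545, permutation p = 0.0792), and without the same livers r was 0.636 and 0.414. Neutrophil markers had r = -0.451 with Anxa2 (permutation p = 0.274, adjusted p = 0.411, rho = -0.385, permutation p = 0.275), r = -0.627 with Anxa5 (permutation p = 0.0911, adjusted p = 0.273, rho = -0.455, permutation p = 0.205) and r = 0.376 with Anxa3 (permutation p = 0.213, adjusted p = 0.383, rho = 0.58, permutation p = 0.0644). Without iTgMir483 replicates 3 and 4 these were -0.255, -0.236 and 0.462. Bile duct markers with Anxa3 had r = 0.0237 (permutation p = 0.945, adjusted p = 0.969, rho = 0.0629, permutation p = 0.857), and -0.0635 without the 2 farthest livers.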

How the data were processed

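Per the study's methods, the authors extracted RNA from liver, prepared poly(A) libraries with a stranded kit and sequenced paired ends. STAR served both for alignment (GRCm38) and for counting reads on Ensembl genes. What the authors deposited are these read counts, raw and not normalized. Which strand column was taken is not given in the sources used here, so genes that overlap on opposite strands are uncertain. Every row of the table named a gene, 0 columns lacked a sample, and GENCODE gave a symbol to 55141 of 55401 identifiers.

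Groups and replicate numbers came from the sample titles, and the study's methods state that libraries were multiplexed for sequencing. Genes were filtered with filterByExpr, scaled with TMM and compared with the quasi-likelihood F-test of edgeR 4.0.16 (limma 3.58.1, R 4.3.3), adjusted over all tested genes. The SE is the log2 fold change over the square root of F. CPM are counts relative to the TMM library size, on the usual CPM scale. Correlations used log2 CPM with a prior count of 2 and permutations within groups. The scripts were tested on simulated data. Replicates are separate mice, and intervals and p-values rest on the variation between them. Those of the fit use a dispersion that draws on all tested genes.

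The members and all lists were chosen with earlier results of these data known. Named genes were the 9 members, every called gene of the pathway lists with examples of uncalled ones, and the 3 genes most like each called member. Some genes that meet this rule are counted in the lists but not reported here. Exon and UTR lengths came from GENCODE, in the same build but another release than the authors' annotation, and microRNA and promoter sequences came from RefSeq on GRCm38.p6. Protein sequences were not used here. Alternatives were RLE size factors, a minimum of 10 counts in every library, no filter, DESeq2 1.42.0, limma-voom, the adjusted p alone, a test against a fold of 1.5, the replicate number as a block, and libraries left out.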

Additional observations from a re-analysis of the deposited data

Results flagged for a closer look

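In the 18 groups of 6 livers formed by the 9 annexins, 2 livers stood apart from the others of their group by Dixon's ratio of the gap to the range past the 95% limit, where chance gives about 1 in 20. Anxa1 in iTgMir483 replicate 1 was 3.28 CPM against 4.95 to 5.57 CPM in the other 5 livers, a ratio of 0.731. Anxa13 in iTgMir483 replicate 6 was 3.17 CPM against 1.21 to 1.82 CPM in the others, a ratio of 0.692.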

How the results depend on the processing

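Anxa2 was called higher under all 20 alternatives (log2 fold change 1.92 to 2.26, adjusted p 9.62e-12 to 0.00301), and Anxa3 (0.75 to 0.92) and Anxa5 (0.69 to 0.86) under 19, all but the test against a fold of 1.5, where the count of members called higher was 1. With a library left out that count was 3 to 4, and no member was called lower under any alternative. The log2 fold change of Anxa11 ranged from -0.1553 to 0.008247 with a library left out and turned sign to 0.008247 without Control replicate 1 and 0.007449 without iTgMir483 replicate 5, where the cause was not tested. Deviations of like-numbered libraries correlated at 0.0339 to 0.44, over 0.1 in 2 of 6 pairs, and equal replicate numbers were not treated as pairs in the main fit. The check covers like-numbered libraries only and cannot show whether mice of other numbers shared a litter. With the replicate block, 1106 genes were higher and 424 lower, the log2 fold change of Anxa2 was 1.94 (adjusted p = 0.0011), and the eicosanoid list had 0 lower calls, with no other change among the counts of members and lists. Among the lists, the binding partners had 2 higher by adjusted p alone (S100a11 and Ahnak). The Anxa1 receptors had 0 with limma-voom, against a fold of 1.5 and without both replicate 1 libraries, and 0 to 1 with a library left out. Membrane repair had 1 with at least 10 counts in every library and 0 against a fold of 1.5. Plasminogen activation had 1 with no filter, 0 with limma-voom, 1 against a fold of 1.5 and 1 to 3 with a library left out. Eicosanoid synthesis had 0 higher against a fold of 1.5 and 1 to 2 with a library left out, and 0 lower with at least 10 counts or against a fold of 1.5 and 0 to 1 with a library left out. The minimum of 10 counts removed Anxa13, Syt7 (9 counts in Control replicate 6) and Ltc4s (1 count in iTgMir483 replicate 3) from the test, which gives the changes under that filter, and the causes of the other changes were not tested. Over all genes, 1110 were higher and 360 lower, against 1489 and 968 by adjusted p alone, which differs in the threshold alone. The test against a fold of 1.5, which takes that fold as its null and so has other p-values, gave 167 and 59. The planned comparison of annexin proteins was not run, since protein sequences were not used here. Anxa13, at 8 to 41 counts per library, carries a wide interval.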
